A study of Rattus norvegicus with 11 samples.

Results

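The genes described here encode the enzymes that make coenzyme A (CoA), the enzymes that break it down in peroxisomes, and the enzyme that recovers its vitamin precursor from pantetheine. They were Vnn1, Pank1, Pank2, Pank3, Pank4, Ppcs, Ppcdc, Coasy, Nudt7 and Nudt19. They were put together around the pathway and selected on earlier results of these data, with the group difference in the intensity of Vnn1 known. They are 10 of the 14217 genes that the platform annotation names from a probe set with a single gene symbol, and 16 of the 31099 probe sets on the array carry one of their symbols. The brightest probe set over the 11 arrays represented each gene, so mean brightness chose the representative and is no finding. All 10 representatives passed the filter on dim probe sets and were among the 10714 genes tested. Each array, of an Affymetrix design, carried liver RNA of 1 Wistar rat, an outbred strain. The control group held 3 rats (animal numbers 1, 2 and 9), and the other group held 8 rats that the labels call high-dosed (numbers 2, 3, 4, 5, 6, 8, 10 and 11), the agent being mequindox, a synthetic antibacterial of veterinary use. All rats were labelled as week 9 of age except high-dosed rat 8, labelled week 10. How much drug they had, and for how long, is not given in the sources used here, and the design text says that a principal component analysis of liver extracts and clinical chemistry guided the choice of these groups.

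CoA carries acyl groups in the citrate cycle, in fatty acid oxidation and synthesis, and in the conjugation of bile acids and drugs, and liver is rich in it. Cells build it from pantothenate (vitamin B5), which pantothenate kinases phosphorylate in the first and rate-controlling step. PPCS then joins cysteine to the product, PPCDC removes a carboxyl group to give phosphopantetheine, and COASY adds the adenosine part and a phosphate in the last steps. NUDT7 and NUDT19 are Nudix hydrolases of peroxisomes that cut CoA back to phosphopantetheine. VNN1, or vanin-1, is a pantetheinase anchored on the outside of the cell membrane that splits pantetheine into pantothenate and cysteamine.

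The array medians ran from 149 to 187 intensity units, and no pair of arrays held identical values. Hepatocyte markers were bright: the 11 of 12 listed markers with a probe set of their own, albumin and transthyretin among them, all had at least 3214 units in every rat. Their summed level ran from 199160 to 202330 in controls and from 197380 to 208690 in high-dosed rats. With all arrays, 847 of the genes tested were higher and 294 lower in high-dosed rats at an adjusted p below 0.05 in limma. That split was 591 and 332 after quantile normalization and 473 and 258 after median centring. The 3 lowest array medians, 149 to 153, were those of high-dosed rats 8, 10 and 11, and values without these rats are given for the main results. Within animal numbers 8 and above, 1 control met 3 high-dosed rats and limma called 3 genes in all, so a call missing there says little about a gene, and for the members called the size of the difference there is given.

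Pank3 and Ppcs act at the first and second steps of CoA synthesis. Ppcs and the brightest of 4 Pank3 probe sets were higher in high-dosed livers, while the other Pank3 probe sets did not pass. Vnn1 was the member with the largest difference. Of the 9 members other than Vnn1, 2 rose, 0 fell and 7 did not pass the test (limma, adjusted over all genes). Among all genes tested 10.6% were called, 7.91% as higher and 2.74% as lower. At an unadjusted p below 0.05 limma gave 3 higher and 0 lower of these 9, against 1964 higher and 789 lower of all 10714 genes. Their median log2 fold change was 0.19, against 0.017 over all genes tested. Of the 9, 8 lay above 0, against 5779 of all 10714. The groups did not overlap for Vnn1, Pank3 and Ppcs, and for 12.1% of all genes. Vnn1 was counted apart because its difference was known when the genes were put together, so it is described without a test.

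**Figure D1:**
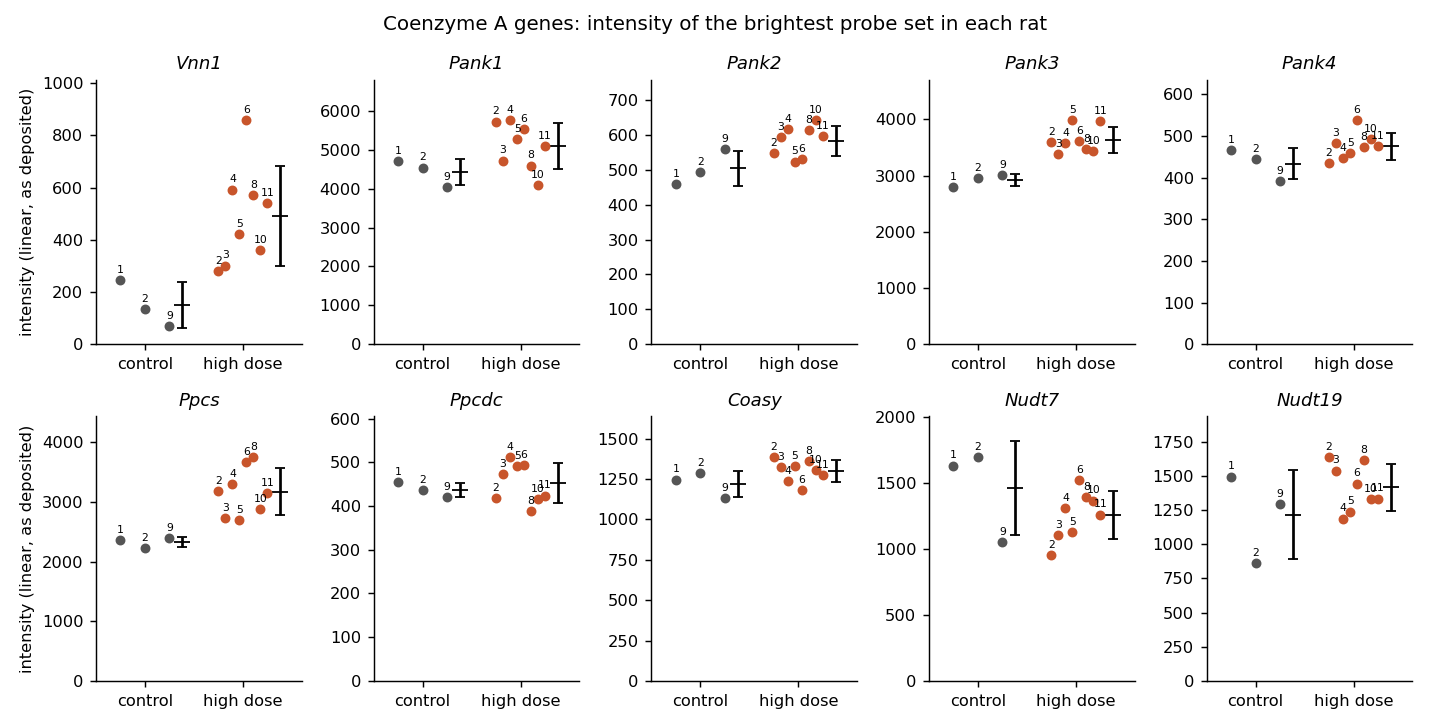
Deposited intensity (linear scale, starting at 0) of the representative probe set of each of the 10 genes in 3 control and 8 high-dosed rats; points are single rats with their animal numbers, and bars give mean and SD. For Vnn1, Pank3 and Ppcs every high-dosed rat lies above every control, while the groups overlap for the other 7 genes.

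Vnn1 recycles pantetheine outside the cell, and in rodent liver it is a known target of the fatty acid receptor PPARα. Its intensity was 246 in control 1, 136 in control 2 and 70.6 in control 9. In the high-dosed rats it was 279 in number 2, 301 in 3, 592 in 4, 423 in 5, 858 in 6, 572 in 8, 359 in 10 and 541 in 11. All 8 high-dosed rats lay above all 3 controls, although rats 2 and 3 were close to control 1. The control mean was 151 ± 88.6 (SD, n = 3), and that of the high-dosed rats 491 ± 192 (SD, n = 8). On the log2(intensity + 55.26) scale, where the added constant damps the change of dim genes, the difference was 1.42 ± 0.30 (SE), or 2.68-fold, and it was 1.79 with no constant added. The log2 value of control 9 was 6.98, under the filter value of 7.40 that the gene passed by its mean over all arrays, so its level there was not shown to be above background. Without control 9 the difference was 1.11, within animal numbers 6 and below it was 1.08, and within numbers 8 and above, with control 9 as the only control, it was 2.09. Without high-dosed rats 8, 10 and 11 it was 1.39.

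Vnn1 also varied more between rats of the same group than most genes did. Its SD of log2 values among the 8 high-dosed rats was 0.49, at the 99.0th percentile of all genes tested, and among the 3 controls it was 0.63, at the 99.4th. The other members were steadier among high-dosed rats, from Coasy at the 12.4th percentile (SD 0.072) to Nudt7 at the 77.4th (0.21). Among controls Nudt19 and Nudt7 were less spread than Vnn1 but more than most genes, with SDs of 0.39 and 0.37, at the 97.4th and 96.9th percentiles.

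Among the pantothenate kinases only the representative probe set of Pank3 passed the test. Pank3 encodes a cytosolic kinase that is feedback-inhibited by acetyl-CoA. Its intensity was 2798, 2959 and 3011 in controls 1, 2 and 9. In high-dosed rats 2, 3, 4, 5, 6, 8, 10 and 11 it was 3599, 3385, 3577, 3990, 3613, 3472, 3432 and 3973. The groups did not overlap, and both were tight. The level rose 1.24-fold (log2 fold change 0.31 ± 0.059, SE, 3 controls and 8 high-dosed rats, limma adjusted p = 0.00753). Leaving out control 1 ended the call (0.27, adjusted p = 0.055). Within numbers 8 and above the difference was 0.26 (adjusted p = 0.182). The call held without rats 8, 10 and 11 (0.31, adjusted p = 0.0207).

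That rise rested on 1 of 4 Pank3 probe sets. The representative is the brightest by the rule. The second brightest had intensities of 1547, 1273 and 1555 in controls and from 1203 to 1572 in high-dosed rats, a log2 fold change of -0.055 ± 0.091 (SE). The third gave 0.14 ± 0.13 and the dimmest -0.20 ± 0.10. None of these 3 passed the test (limma adjusted p from 0.276 to 0.758 over 18625 probe sets, of which 6.92% were called, 4.63% as higher). The log2 difference between the representative and the second probe set was 0.98 ± 0.18 in controls and 1.34 ± 0.15 in high-dosed rats (SD, n = 3 and 8), so the 2 probe sets changed unequally (exact two-sided permutation p = 0.0121, 0.0242 adjusted over 4 such comparisons). Against the dimmest the change in that difference was 0.51 (exact permutation p = 0.00606, the smallest that 165 arrangements allow, adjusted 0.0242), and against the third it was 0.17 (exact permutation p = 0.297). With the mean over all 4 probe sets in place of the brightest, Pank3 stood at 0.046 (limma adjusted p = 0.708). Which transcript forms each probe set detects was not given in the sources used here.

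**Figure D2:**
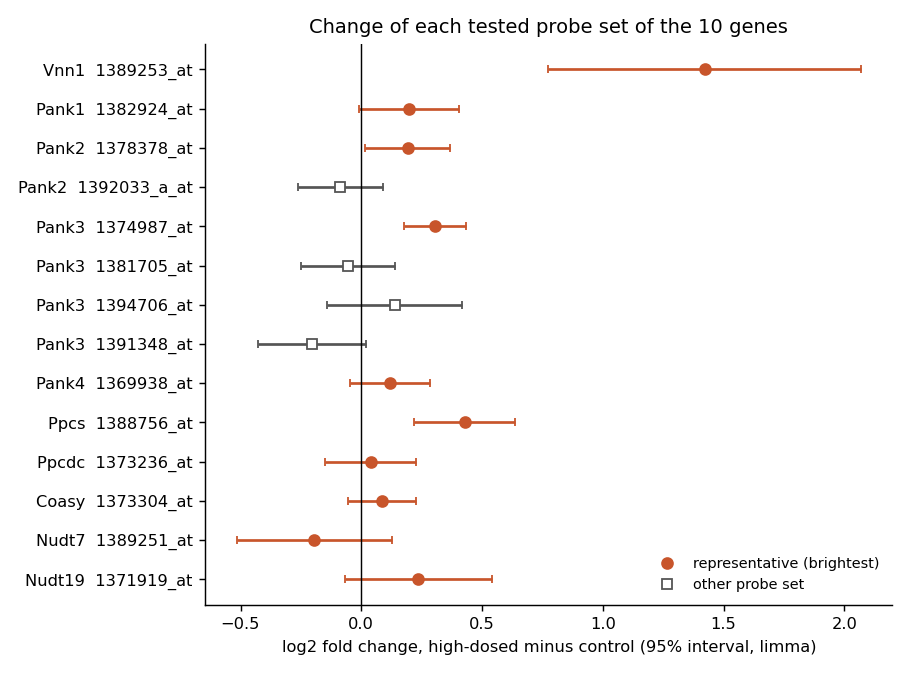
Log2 fold change (high-dosed minus control, x axis) with its 95% interval from limma for the 14 tested probe sets of the 10 genes; filled circles are the representatives and open squares the other probe sets. The 4 Pank3 probe sets run from -0.20 to 0.31 and lie on both sides of 0, and Vnn1 stands at 1.42. The difference of Vnn1 was known when the genes were put together, so its interval is no test.

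The start of Pank3 lies in sequence rich in G and C. It is shown because Pank3 and Ppcs were the members other than Vnn1 whose representative probe set rose. The promoter table, from RefSeq in build GRCr8, held 7 of the 10 genes (not Vnn1, Pank4 or Ppcdc). The stretch below is chr10:20732941-20733190 on the plus strand, the 250 bases before the annotated start, with each match to the GC box GGGCGG or its reverse complement CCGCCC in capitals.
Pank3: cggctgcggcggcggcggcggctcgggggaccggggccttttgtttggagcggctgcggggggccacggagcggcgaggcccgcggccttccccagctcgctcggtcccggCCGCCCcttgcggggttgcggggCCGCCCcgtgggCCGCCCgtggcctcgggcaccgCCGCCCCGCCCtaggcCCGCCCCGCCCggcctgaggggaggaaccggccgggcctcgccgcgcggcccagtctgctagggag
The 300-base Pank3 window, which adds 50 bases after the start, was 79.7% G and C, at the 99.1th percentile of 27457 rat promoters of that length. It held 7 matches to the GC box on either strand, some of them overlapping. A GC box was present in 34.9% of all these promoters and in 5 of the 7 members' windows, those of Pank2, Pank3, Coasy, Nudt7 and Nudt19. The windows of Ppcs and Pank1 held none. The nuclear receptor half-site AGGTCA (or TGACCT) was found in 15.7% of all promoters and in 1 of the 7, that of Ppcs. The E-box CACGTG, which reads the same on both strands, was found in 6.65% of all and in 0 of the 7. A match describes these letters in this window and not a site in use.

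The other 3 kinase genes stayed below the threshold. Pank1, the kinase prominent in liver and known to respond to PPARα, had intensities of 4705, 4542 and 4041 in controls and a lowest, median and highest value of 4094, 5187 and 5767 in high-dosed rats. Of the high-dosed rats 6 lay above every control, and rats 8 and 10 lay within the control range. Its log2 fold change was 0.20 ± 0.096 (limma adjusted p = 0.224), and 0.28 without rats 8, 10 and 11 (adjusted p = 0.0548). Pank2, the kinase whose human counterpart is mutated in a neurodegeneration with brain iron, had 459, 493 and 558 in controls and 523, 595 and 642 as the lowest, median and highest high-dosed values. Its log2 fold change was 0.19 ± 0.079 (limma adjusted p = 0.146). A second tested Pank2 probe set had -0.087 ± 0.081, and this pair changed unequally too (by 0.28, exact permutation p = 0.0364, adjusted 0.0485). The remaining 2 Pank2 probe sets were dimmer than the filter value and were not tested. Pank4, a family member that lacks kinase activity and carries a phosphatase domain, had 465, 445 and 392 in controls and 435, 474 and 538 in high-dosed rats (log2 fold change 0.12 ± 0.074, limma adjusted p = 0.35).

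Ppcs, the synthetase that couples phosphopantothenate to cysteine, rose by more than any other member besides Vnn1. Its intensity was 2360, 2232 and 2391 in controls 1, 2 and 9. In high-dosed rats 2, 3, 4, 5, 6, 8, 10 and 11 it was 3185, 2736, 3302, 2694, 3667, 3758, 2880 and 3154. The lowest high-dosed value, in rat 5, lay above the highest control, and rats 6 and 8 were the highest. The level rose 1.35-fold (log2 fold change 0.43 ± 0.097, SE, 3 controls and 8 high-dosed rats, limma adjusted p = 0.0167), from a single probe set. The size hardly moved when arrays were left out (0.39 to 0.46), but it did not pass without control 1 (0.44, adjusted p = 0.0685), nor with control 2 left out (0.40, adjusted p = 0.062). Rats numbered 6 and below gave 0.42 (adjusted p = 0.0739). Within numbers 8 and above the difference was 0.43 (adjusted p = 0.142). Without rats 8, 10 and 11 it was 0.40 (adjusted p = 0.0394).
The half-site in its window is shown in capitals, in the 30 bases of chr5:138311951-138311980 on the minus strand, positions -167 to -138 from the start used in that table.
Ppcs: caagccttggcgAGGTCAagacttagtggc

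Ppcdc and Coasy, which act after Ppcs, did not pass. Ppcdc, the decarboxylase, had 454, 436 and 421 in controls and a lowest, median and highest of 388, 449 and 513 in high-dosed rats. Its log2 fold change was 0.038, with a 95% interval from -0.15 to 0.22 (limma adjusted p = 0.814). Coasy, the enzyme with both final activities, had 1246, 1285 and 1130 in controls and 1183, 1314 and 1387 in high-dosed rats. Its log2 fold change was 0.087, with a 95% interval from -0.049 to 0.22 (limma adjusted p = 0.425). A change of up to 0.22 in either gene was not excluded by its interval.

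**Figure D3:**
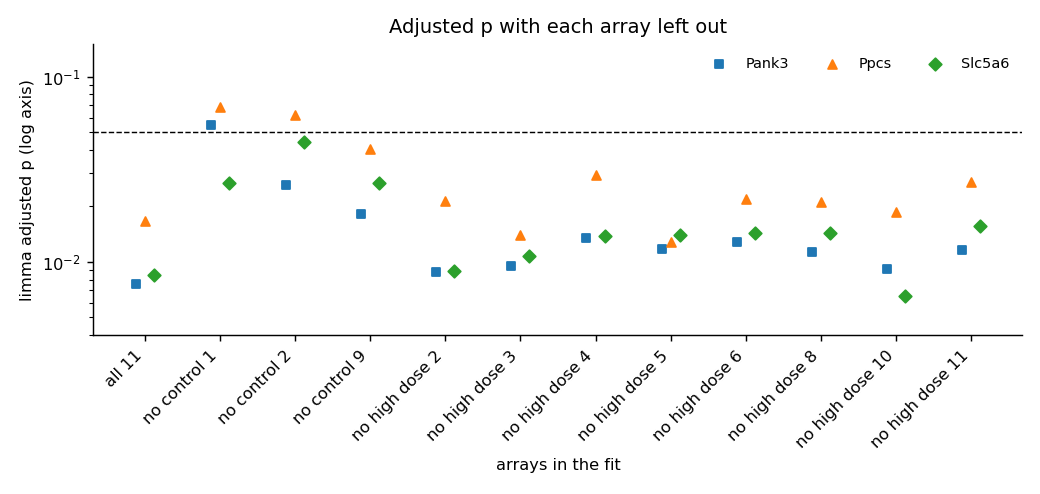
Limma adjusted p (log axis) of Pank3, Ppcs and the pantothenate transporter gene Slc5a6 with all 11 arrays and with each array left out in turn (x axis); the dashed line is the threshold of 0.05. Pank3 lies above the line without control 1 and Ppcs without control 1 or 2, while Slc5a6 stays below the line with a highest value of 0.0441.

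The 2 CoA hydrolase genes did not pass, and single controls set the size of their differences. Nudt7, the hydrolase of liver peroxisomes that degrades CoA and medium-chain acyl-CoA, had 1634, 1701 and 1056 in controls 1, 2 and 9. Its lowest, median and highest values in high-dosed rats were 955, 1288 and 1522. No high-dosed rat lay above controls 1 and 2, and control 9 lay above high-dosed rat 2 only. The log2 fold change was -0.19 ± 0.15 (limma adjusted p = 0.456). It was -0.41 without control 9 (adjusted p = 0.0965) and turned to 0.33 within numbers 8 and above, where control 9 stood alone (adjusted p = 0.114). Nudt19, its relative best known from kidney, had 1494, 861 and 1291 in controls and 1186, 1387 and 1639 in high-dosed rats. Here control 2 was the low one. The log2 fold change of 0.24 ± 0.14 (limma adjusted p = 0.329) shrank to 0.017 when control 2 was left out (adjusted p = 0.954); leaving out control 1 gave 0.40 (adjusted p = 0.182).

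The members varied among the high-dosed rats in both senses. Over the 8 high-dosed rats, 21 of the 45 pairs of members had a positive Pearson r and the median r was -0.091. None of the 45 pairs passed after adjustment (exact permutation tests, lowest adjusted p = 0.534), and 3 had an unadjusted p below 0.05. The closest pairs with Vnn1 were Nudt7 (r = 0.82, exact permutation p = 0.0124, adjusted 0.534; rho = 0.81, exact permutation p = 0.0218, adjusted 0.592) and, in the opposite sense, Coasy (r = -0.77, exact permutation p = 0.0249, adjusted 0.534; rho = -0.69, exact permutation p = 0.0694, adjusted 0.592). Without rats 2 and 6, the farthest from the median of Vnn1, r was 0.56 and -0.34 over the 6 rats left (exact permutation p = 0.236 and 0.503), a narrower range of Vnn1. For Vnn1 with Ppcs r was 0.71 (exact permutation p = 0.053, adjusted 0.534; rho = 0.62, exact permutation p = 0.115, adjusted 0.592) and 0.81 without the same rats. After median centring all 8 rats gave r with Vnn1 of 0.74 for Nudt7, -0.64 for Coasy and 0.56 for Ppcs. Rat 6 had the highest Vnn1 and Nudt7 and the lowest Coasy among the high-dosed rats.

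**Figure D4:**
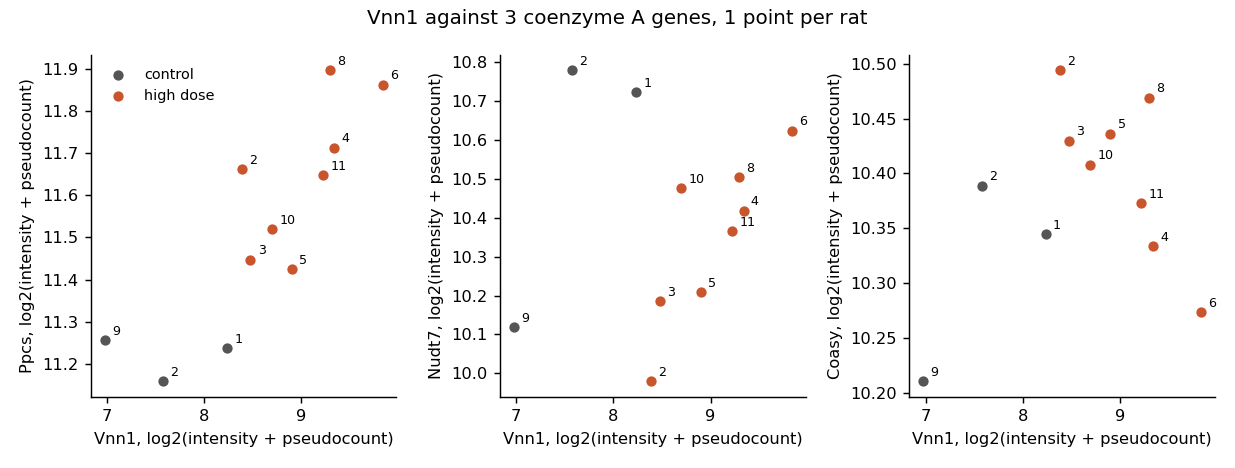
Log2(intensity + pseudocount) of Vnn1 (x axis) against Ppcs, Nudt7 and Coasy (y axes), 1 point per rat with its animal number; grey points are the 3 controls and orange points the 8 high-dosed rats. Among high-dosed rats r is 0.71 with Ppcs, 0.82 with Nudt7 and -0.77 with Coasy, and none of these passes after adjustment over 45 pairs.

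Of the other 10713 genes tested, those whose profile over the 8 high-dosed rats was most like that of Vnn1, leaving out placeholder symbols, were Zfp189, Acot12, Alg5, Cetn2 and Sec62 (Pearson r from 0.96 to 0.98). Acot12 is a cytosolic acetyl-CoA thioesterase and Zfp189 a zinc finger gene, Alg5 acts in the making of N-glycans and Sec62 in protein entry to the endoplasmic reticulum. None of these 5 was called between the groups (limma adjusted p from 0.0965 to 0.972). The r of Nudt7 with Vnn1 stood at the 98.4th percentile of all genes, that of Ppcs at the 94.0th and that of Coasy at the 1.21th. With 8 rats and this many genes, such values describe these rats only.

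Around the pathway, the gene for pantothenate uptake rose as well. Slc5a6, the sodium-dependent multivitamin transporter, had 906, 761 and 849 in controls 1, 2 and 9. In high-dosed rats 2, 3, 4, 5, 6, 8, 10 and 11 it had 1370, 1063, 1126, 1376, 1201, 1137, 1022 and 1220, so the groups did not overlap. It rose 1.39-fold (log2 fold change 0.47 ± 0.094, SE, 3 controls and 8 high-dosed rats, limma adjusted p = 0.00847), and the call held with any single array left out (highest adjusted p = 0.0441). Within numbers 8 and above the difference was 0.38 (adjusted p = 0.122). Of 11 tested neighbours of the pathway it was the 1 called, a share near the 10.6% of all genes, and at an unadjusted p below 0.05 limma gave 1 higher and 3 lower (Ndufab1, Dpyd and Enpp1). The other 10, which include the mitochondrial CoA carrier genes Slc25a42 and Slc25a16, the carrier-protein transferase Aasdhppt, the hydrolase Nudt8 and the uracil-degrading genes Dpyd, Dpys and Upb1 that yield beta-alanine, did not pass. The median log2 fold change of the 11 was -0.094.

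Cysteine enters CoA at the PPCS step, and the cysteamine that VNN1 releases can be oxidised to hypotaurine and taurine. Of 9 tested genes of cysteine and taurine metabolism 2 rose, 2 fell and 5 did not pass (median -0.10). Like the other gene lists here, this one was chosen with earlier results of these data known, so its counts are descriptive. Among all genes tested 10.6% were called, 7.91% as higher and 2.74% as lower. At an unadjusted p below 0.05 limma gave 2 higher and 3 lower of the 9. Fmo1, a flavin monooxygenase known to oxidise hypotaurine, was higher by a log2 difference of 1.33 ± 0.11 (limma adjusted p = 6.06e-05), and Cdo1, the cysteine dioxygenase, by 0.12 ± 0.032 (adjusted p = 0.0264). Cbs, which starts the route from homocysteine to cysteine, fell by 0.62 ± 0.12 (limma adjusted p = 0.00808), and the taurine transporter Slc6a6 by 1.24 ± 0.36 (adjusted p = 0.045). The groups overlapped for Slc6a6: high-dosed rat 10 had 2457, within the control range of 2218 to 2726. The other high-dosed rats ran from 543 to 1659. Its SD of log2 values among high-dosed rats was 0.71, at the 99.6th percentile of all genes tested. Ado, which oxidises cysteamine itself, was at -0.12 and did not pass. The call of Fmo1 held with any single array left out. That of Cbs was lost without control 1 (-0.58, adjusted p = 0.0563), that of Cdo1 without control 1 or 2 (0.096 to 0.13, adjusted p up to 0.169), and that of Slc6a6 by the omission of any 1 of 9 arrays, the 3 controls included (-1.30 to -1.13, adjusted p up to 0.189). Cdo1 and Slc6a6 were also lost after median centring.

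Among genes that use or release CoA, some synthetases fell. Of 9 tested acyl-CoA thioesterases, which free CoA from its esters, 0 were called by limma, with 1 at an unadjusted p below 0.05, and the median was -0.16. Of 13 acyl-CoA synthetases, which consume CoA, 0 rose and 3 fell (limma, 3 lower and 0 higher at an unadjusted p below 0.05). Among all 10714 genes tested 10.6% were called, 2.74% as lower, and 789 were lower at an unadjusted p below 0.05 (limma). The 3 synthetases called as lower were Acsm3 (-0.57 ± 0.15), Acsl3 (-0.35 ± 0.10) and Acsl5 (-0.13 ± 0.038), with limma adjusted p from 0.0281 to 0.0478. The call of Acsm3 was lost without control 1 or 2 (-0.56 to -0.45), that of Acsl3 without any 1 of 9 arrays (-0.38 to -0.33) and that of Acsl5 without any 1 of 8 (-0.14 to -0.12), the 3 controls among them for both. Scaling by quantiles or medians also ended the call of Acsl5, which stood at 0.015 with all its probe sets averaged.

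Of 16 other tested targets of PPARα 1 rose, 1 fell and 14 did not pass, with a median of -0.064. That share was near the 10.6% called among all genes, and at an unadjusted p below 0.05 limma gave 2 higher and 3 lower. Cpt1a, the gate of mitochondrial fatty acid oxidation, rose by 0.81 ± 0.22 (limma adjusted p = 0.0351), a call lost without any 1 of the 3 controls or high-dosed rat 4 or 8 (0.73 to 0.86, adjusted p up to 0.116), and without rats 8, 10 and 11 together (0.78, adjusted p = 0.0896) or with its probe sets averaged. Pdk4, the kinase that restrains pyruvate dehydrogenase, fell by 0.68 ± 0.12 (limma adjusted p = 0.00544) and stayed called with any single array left out.

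Genes of the peroxisome, where both CoA hydrolases act, and of the rest of the Nudix family were read against the 10.6% called among all genes. Of 11 peroxisome biogenesis genes 1, the membrane protein importer Pex19, fell (-0.38 ± 0.085, limma adjusted p = 0.0172). Its call was lost without control 1 or 2 (-0.39 to -0.33, adjusted p up to 0.0733). Of 14 Nudix family genes outside the 10 genes, Nudt2 (0.43 ± 0.086), a dinucleoside tetraphosphatase, and Nudt21 (0.35 ± 0.081), a pre-mRNA cleavage factor, rose. Nudt4 (-0.26 ± 0.069), an inositol pyrophosphate phosphatase, fell, and 11 did not pass (limma adjusted p of the 3 from 0.00913 to 0.0331). The call of Nudt2 held with any single array left out, that of Nudt21 was lost without control 1 (0.30, adjusted p = 0.115) and with its probe sets averaged (0.20, adjusted p = 0.143), and that of Nudt4 without any 1 of 5 arrays, controls 1 and 9 among them (-0.29 to -0.16, adjusted p up to 0.145), and after median centring.

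In the high-dosed livers 3 of 8 tested endothelial, 1 of 9 macrophage, 1 of 1 cholangiocyte and 1 of 11 hepatocyte markers were called as higher. Another hepatocyte marker was called as lower. In such bulk tissue more cells of a type and more RNA per cell cannot be told apart. Among all genes tested 10.6% were called, 7.91% as higher. A log2 fold change above 0 was found for 7 of 8 endothelial and 8 of 9 macrophage markers, against 5779 of all 10714 genes. The exceptions were Lyve1 (-0.12) and Cd163 (-0.22). The summed intensity of 8 endothelial markers ran from 11992 to 13687 in controls and from 13707 to 15154 in high-dosed rats, and 3 of the 8 rose, Emcn (0.55), Pecam1 (0.60) and Stab2 (0.40). The call of Pecam1 was lost without control 1 (0.51, adjusted p = 0.0541) and that of Stab2 without control 1 or 9 or high-dosed rat 5 (0.31 to 0.39, adjusted p up to 0.182) and after either scaling. For 9 macrophage markers the sum ran from 20171 to 27693 and from 26075 to 35299, and 1 rose, Mrc1 (0.31), a call lost without any 1 of 9 arrays, controls 1 and 9 among them (0.22 to 0.32, adjusted p up to 0.271) and after either scaling. For 4 cholangiocyte markers it ran from 569 to 677 and from 884 to 1476, with 3 of the 4 dimmer than the filter value and the other, Epcam, higher (0.83, limma adjusted p = 0.00544). Of 11 hepatocyte markers 1 rose, Apoa1 (0.35), and 1 fell, Asgr1 (-0.18), both calls lost without control 1 (Apoa1 0.35, adjusted p = 0.0737; Asgr1 -0.14, adjusted p = 0.156), and that of Apoa1 without control 9 too (0.24, adjusted p = 0.0658). None of the 7 stellate, 4 lymphocyte, 2 neutrophil or 2 erythroid genes tested was called by limma, with 1 stellate gene at an unadjusted p below 0.05 and 0 in the other lists, and no marker was listed at 0. The part of cell composition in the values of Vnn1, Pank3 and Ppcs was not tested.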

How the data were processed

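Liver RNA of 3 control and 8 high-dosed rats was measured on 1 Affymetrix array each. The deposited values were intensities of 31099 probe sets on a linear scale; their source is MAS5, per the submitters' processing notes, and its version and scaling are not given in the sources used here. They were analysed as log2(intensity + 55.26), the constant being the 20th percentile of all values. The 57 probe sets named AFFX, which are array controls, and all probe sets whose mean log2 value fell below the 40th percentile (7.40) did not enter, leaving 18625 probe sets and 10714 genes, each with its brightest probe set of 1 symbol. The groups were compared with limma 3.58.1 in R 4.3.3 (two-sided moderated test with a mean-variance trend, Benjamini-Hochberg adjustment), with calls at an adjusted p of under 0.05. The fit was tested on simulated data. Correlations used exact permutation tests over the 8 high-dosed rats. The 10 genes, the gene lists and the tests were chosen with earlier results of these data known. Genes outside the 10 were named if called in a list (at most 4 per list) or among the 5 most like Vnn1. Ado, Nudt8, Ndufab1, Enpp1, Aasdhppt, Dpyd, Dpys, Upb1, Slc25a42, Slc25a16, Lyve1 and Cd163 were named after their values were seen. Alternatives covered scaling, the constant, the filter, the variance trend, the choice of probe set and the arrays used. Precision is limited by how few arrays there are, above all the 3 controls. Promoter letters came from RefSeq (GRCr8).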

Additional observations from a re-analysis of the deposited data

Results flagged for a closer look

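Of 36 genes examined, 1 had a high-dosed rat far from the other 7. The 36 were the 10 genes of the pathway, the 5 most like Vnn1 and the called genes named from the lists; genes named without a call were not examined. For Nudt21 the log2 value of high-dosed rat 2 was 10.37, against 10.61 to 10.77 in the others, and its gap to the nearest of them was 0.607 of the whole range. Chance gives such a value in about 1 of 20 groups, so 1 among 36 is no more than chance would give.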

How the results depend on the processing

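All 10 genes kept the direction of their difference in each of the 24 other settings except Ppcdc (-0.038) and Nudt7 (0.33), both within animal numbers 8 and above. The mean over all probe sets turned Acsl5 to 0.015. Of the 9 members other than Vnn1, those called in any of these settings were Pank3 and Ppcs. Leaving out single arrays gave 0 to 2 called members besides Vnn1 and 325 to 1406 called genes; the lowest counts, 0 and 325, came without control 1, and without control 2 they were 1 and 759. The member count was 1 with all probe sets averaged and within numbers 6 and below, and 0 within 8 and above. The gene count was 731 after median centring, 716 without rats 8, 10 and 11, 612 within numbers 6 and below, and 3 within 8 and above, where 1 control was assumed to vary like the high-dosed rats. Centring over all probe sets, added after seeing the data, gave 705 higher and 147 lower; which probe sets to centre on was settled after both versions had been computed. The cause of these differences was not tested. Of the 45 pairs 0 passed the adjusted permutation test after median centring or without the 2 farthest rats, with 3 and 1 at an unadjusted p below 0.05. No paired analysis was possible because the groups share only 1 animal number. A dim level, as for Vnn1 in control 9, limits the size of a fold change.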
